A study of Mus musculus with 8 samples.

Results

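The 8 genes described here encode amino acid transporters of the liver and were measured in mice that overexpressed Nudt7, a peroxisomal hydrolase of coenzyme A and acyl-CoAs. The genes were taken from a list, and this list and those compared below were chosen with earlier results of these data known. They are Slc7a2, Slc38a2, Slc38a4, Slc38a3, Slc7a5, Slc3a2, Slc43a1 and Slc6a12, which are 8 of the 34547 genes in the data. RNA was measured by stranded mRNA sequencing in the livers of 4 mice given mouse Nudt7 on an adeno-associated viral (AAV) vector, and of 4 mice given GFP on that vector. GFP is a fluorescent protein and serves as the control. All 8 were C57BL/6J mice, injected by tail vein with 2.5e+11 particles in 150 µl at 8 weeks of age, and all livers came from animals of 11 to 12 weeks that had been fasted for 24 h. The GFP mice therefore share the vector, the injection and the fast, and uninjected or fed mice were not analysed here. The sources used here do not give the serotype or promoter of the vector or the sex of the mice. The labels name each liver as a separate sample, with no batch or pairing.

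Hepatocytes take up amino acids through carriers that differ in their substrates and driving force. System A carriers bring in small neutral amino acids such as alanine together with sodium, the system N carrier exchanges glutamine, asparagine and histidine, and cationic carriers bring in arginine, lysine and ornithine. In fasting, this uptake feeds gluconeogenesis and the urea cycle. A shortage of amino acids activates the kinase GCN2 and the transcription factor ATF4, and Slc38a2, Slc7a5 and Slc3a2 are known among the genes that ATF4 induces.

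Slc7a2 encodes the cationic amino acid transporter CAT2 and is the member with the lowest unadjusted p. Its gene lies on chromosome 8 (40862396 to 40922308, plus strand, GRCm38, GENCODE M21). Its transcripts other than Slc7a2-205, which has neither, use one or the other of a pair of alternative coding exons. These are exon 7 of Slc7a2-201 and exon 7 of Slc7a2-202. They encode a stretch that is known to set the affinity of the carrier for arginine. The exon of Slc7a2-201 and Slc7a2-204 is 137 bases long (chr8:40908398-40908534) and that of Slc7a2-202 and Slc7a2-203 is 140 bases long (chr8:40908056-40908195). They are shown because the transcripts differ here, with capitals at the bases that differ or have no partner. In an alignment of 140 positions, 84 (60%) held the same base.

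Slc7a2 137-base exon: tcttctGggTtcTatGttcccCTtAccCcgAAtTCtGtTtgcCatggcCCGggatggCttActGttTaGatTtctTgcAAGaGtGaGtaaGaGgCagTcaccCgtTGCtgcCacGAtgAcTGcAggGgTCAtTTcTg

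Slc7a2 140-base exon: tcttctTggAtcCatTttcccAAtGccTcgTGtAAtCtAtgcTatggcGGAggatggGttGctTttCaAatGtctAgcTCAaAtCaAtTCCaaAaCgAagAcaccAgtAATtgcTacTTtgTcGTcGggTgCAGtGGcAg

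Slc38a2 encodes SNAT2, a system A carrier, and lies on chromosome 15 (96687392 to 96699730, minus strand). Slc38a4 encodes SNAT4, the system A carrier that is abundant in liver and an imprinted gene of the mouse, and lies on the same chromosome and strand (96994820 to 97055956). Slc38a3, the gene of the system N carrier SNAT3, lies on chromosome 9 (107650634 to 107669530, minus strand). Slc7a5 lies on chromosome 8 (121881150 to 121907694, minus strand) and Slc3a2 on chromosome 19 (8706882 to 8723369, minus strand); they encode the light and the heavy chain of the heterodimer LAT1-4F2hc, which exchanges large neutral amino acids. Slc43a1, the gene of the uniporter LAT3 for branched-chain and other large neutral amino acids, lies on chromosome 2 (84838850 to 84863594, plus strand). Slc6a12, which encodes the betaine and GABA carrier BGT1, lies on chromosome 6 (121343076 to 121365775, plus strand).

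RefSeq promoter windows (GRCm38.p6, 250 bases before to 50 after each start) were matched by symbol to 5 of the 8 genes, with 11 windows. Slc38a3, Slc7a2 and Slc7a5 were not matched. The windows of Slc38a2 (chr15:96699679-96699978, minus strand) and of the first start of Slc38a4 (chr15:97055907-97056206, minus strand) are shown because the levels of these 2 system A genes did not overlap between Nudt7 and GFP livers. Capitals mark the motifs described below, read 5′ to 3′ on the gene's strand, so that a motif on the other strand appears as its reverse complement.

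Slc38a2 promoter: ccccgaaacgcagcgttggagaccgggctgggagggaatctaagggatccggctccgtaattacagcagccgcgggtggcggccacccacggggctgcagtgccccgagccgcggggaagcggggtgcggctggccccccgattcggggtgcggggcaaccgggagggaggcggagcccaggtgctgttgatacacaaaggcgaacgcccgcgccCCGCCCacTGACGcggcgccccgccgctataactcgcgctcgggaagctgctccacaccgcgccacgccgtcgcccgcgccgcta

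Slc38a4 promoter: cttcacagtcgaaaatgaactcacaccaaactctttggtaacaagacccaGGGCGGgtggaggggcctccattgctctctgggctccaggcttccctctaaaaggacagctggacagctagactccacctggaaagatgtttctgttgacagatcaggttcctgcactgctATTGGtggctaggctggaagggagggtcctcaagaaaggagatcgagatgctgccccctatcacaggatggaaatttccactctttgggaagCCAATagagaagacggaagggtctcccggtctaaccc

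The motifs searched on both strands were the amino acid response element core TGATGNAA, the cyclic AMP response element TGACGTCA and its shorter core TGACG (which the full element contains), the CCAAT box CCAAT and the GC box GGGCGG. TGATGNAA was in 0 of the 11 windows and in 3.97% of 32851 mouse promoter windows, and TGACGTCA in 0 of the 11 and in 1.79% of all. The shorter core TGACG was in 3 of the 11 and in 20.8% of all, CCAAT in 4 of the 11 and in 37.4% of all, and GGGCGG in 5 of the 11 and in 35.7% of all. In the Slc38a2 window TGACG began 27 bases before the start and a GC box on the other strand 35 bases before it. In the Slc38a4 window a GC box began 200 bases before the start, and CCAAT boxes lay 79 bases before it on the other strand and 14 bases after it. The Slc38a2 window was 73% G and C and the Slc38a4 window 53%, against a median of 52.7% over all windows. Several of the 11 windows belong to the same gene, and some of the Slc6a12 windows overlap one another, so they are not separate promoters. Sequence outside the windows was not searched. These matches describe letters in these windows and not binding.

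The libraries held 11187806 to 23640734 estimated reads, and the test covered 13678 genes. Nudt7 itself stood at 1301, 1599, 3569 and 1555 CPM (estimated counts scaled by TMM to a library of 1e+06) in Nudt7 livers, against 60.7, 75.9, 79.9 and 72.9 CPM in GFP livers. Every Nudt7 liver was above every GFP liver (log2 fold change 4.79, SE 0.33, edgeR quasi-likelihood adjusted p = 0.000122). Nudt7 replicate 3 stood apart: it lay at 63.1 on the first principal component (36.3% of the variance), and the other 7 libraries between −19.9 and 2.83. In it, genes in the shortest of 3 equal classes of transcript length were 0.42 log2 units above the other 3 Nudt7 livers (median), and genes in the longest class were at −0.36. Hepatocyte markers (6 genes in the files) summed to 58261 to 87802 CPM in Nudt7 livers, against 69857 to 90581 CPM in GFP livers. The highest Nudt7 sum was that of replicate 3, and the other Nudt7 livers reached up to 75330 CPM. Of these 6 genes, 4 had a negative log2 fold change and 2 a positive one. Their median was −0.14, and −0.29 without Nudt7 replicate 3. Before adjustment, 2 of the 6 were lower in Nudt7 livers at an edgeR p under 0.05, beside 4.03% of all genes, and 0 were higher. For 1 of the 6 every Nudt7 liver lay below every GFP liver, beside 3% of all genes. Red blood cell markers (7 genes) summed to 1816 CPM in Nudt7 replicate 3, to 304 to 643 CPM in the other Nudt7 livers and to 412 to 600 CPM in GFP livers. The sums did not overlap for 5 cholangiocyte markers (31.6 to 42.5 CPM in Nudt7 livers, 17.3 to 29.4 CPM in GFP livers) and 6 markers of sinusoidal endothelium (293 to 314 CPM in Nudt7 livers, 319 to 352 CPM in GFP livers). Of the 5 cholangiocyte markers, 4 had a positive log2 fold change and 1 a negative one. Before adjustment, 2 were higher at an edgeR p under 0.05, beside 4.25% of all genes, and 0 were lower. Among the cholangiocyte markers Spp1 had the smallest p (log2 fold change 1.13, SE 0.22, edgeR adjusted p = 0.105, DESeq2 adjusted p = 0.00109). Without Spp1, left out after its values were seen, the other 4 summed to 17.8 to 23.0 CPM in Nudt7 livers, against 11.8 to 20.7 CPM in GFP livers, and overlapped. Kupffer cell (102 to 235 CPM in Nudt7 livers, 111 to 183 CPM in GFP livers), stellate cell, lymphocyte and neutrophil sums overlapped, and no marker in the files was at 0 in every liver. The part of these markers in the results below was not tested.

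Of the 8 transporter genes, 0 passed the test between Nudt7 and GFP livers (edgeR quasi-likelihood, Benjamini-Hochberg over 13678 genes, adjusted p under 0.05), where 0.117% of all genes passed, 0.0731% as lower and 0.0439% as higher. Before adjustment, 2 had a p under 0.05, Slc7a2 and Slc38a2, beside 8.28% of all genes. Both were lower in Nudt7 livers, beside 4.03% of all genes with a lower value at that limit and 4.25% with a higher one. In 3 of the 8, Slc7a2, Slc38a2 and Slc38a4, every Nudt7 liver lay below every GFP liver, beside 3% of all genes, and in 0 of the 8 every Nudt7 liver lay above, beside 2.74%. A negative log2 fold change was found for 6 members, beside 50.2% of all genes. The median over the 8 was −0.13 log2 units (−0.19 without Nudt7 replicate 3), and that over all genes tested was −0.00089. DESeq2 called 1 member, Slc7a2, beside 1.11% of the 13424 genes it adjusted and 0.477% as lower. Limma-voom called 0 members (0.0585% of all genes) and limma-voom with sample weights 0 (0.76%). The livers are bulk tissue, so fewer cells of a type and less RNA per cell cannot be told apart in any of these values.

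**Figure D1:**
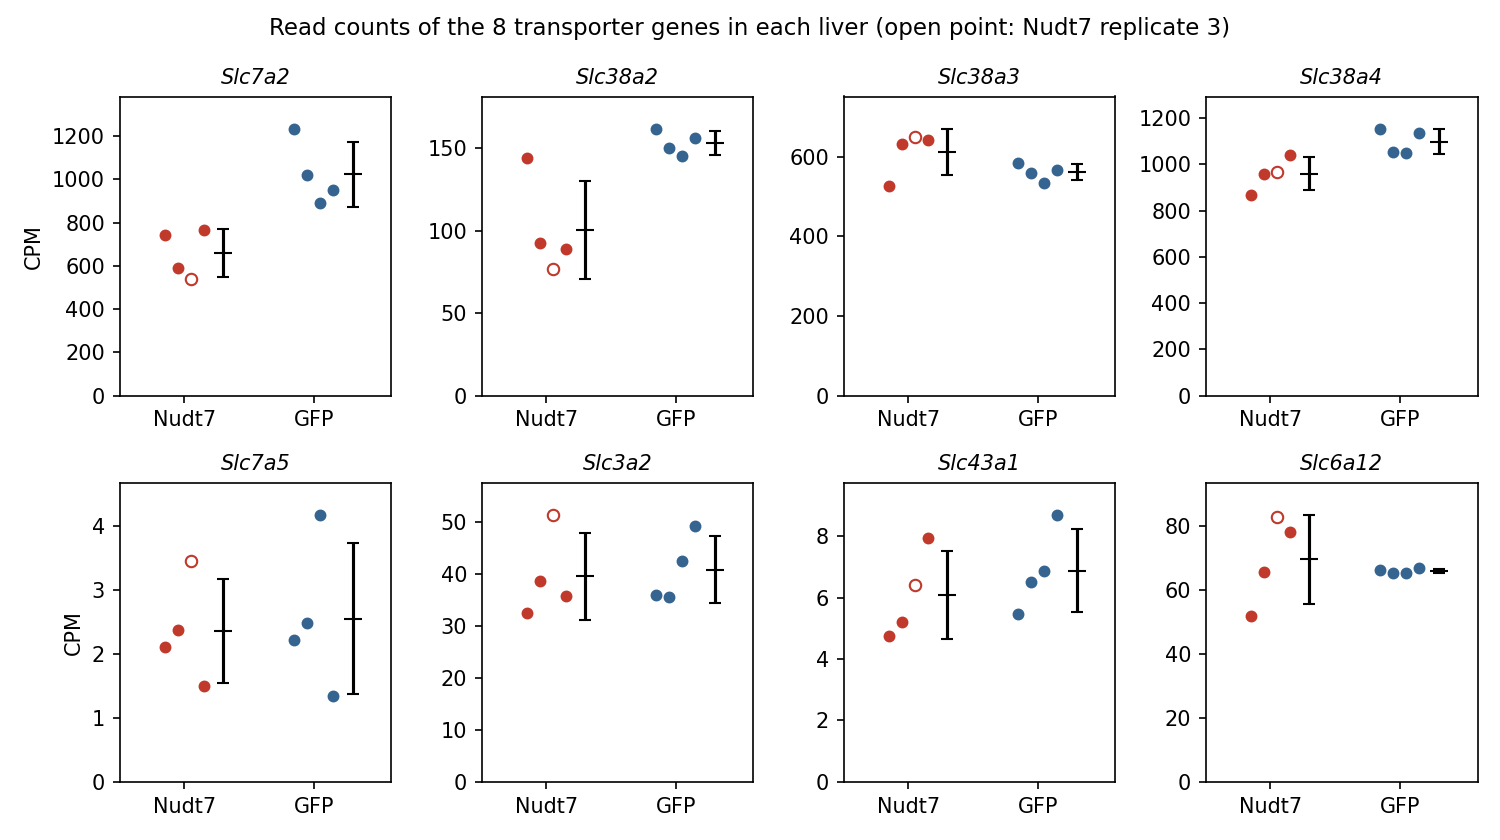
CPM of each transporter gene (vertical axis, from 0) in the 4 Nudt7 and 4 GFP livers, with 1 point per liver, the mean and SD as a bar beside the points, and Nudt7 replicate 3 as an open point. The Nudt7 points lie below all GFP points for Slc7a2, Slc38a2 and Slc38a4, narrowly for Slc38a2 and Slc38a4, and the groups overlap for the other 5 genes.

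Slc7a2 was at 742, 591, 538 and 764 CPM in Nudt7 livers, against 1235, 1021, 891 and 949 CPM in GFP livers. The highest Nudt7 liver, at 764 CPM, lay below the lowest GFP liver, at 891 CPM. The means were 659 ± 111 CPM in Nudt7 livers, against 1024 ± 151 CPM in GFP livers (mean ± SD, n = 4 per group), a log2 fold change of −0.64 (SE 0.16, 95% interval −0.99 to −0.28, unadjusted p = 0.00229). It did not pass the edgeR quasi-likelihood test over all genes (adjusted p = 0.239), passed that of DESeq2 (−0.63, adjusted p = 0.0131), and was at adjusted p = 0.229 in limma-voom and 0.0749 with sample weights. The adjusted p ran from 0.0131 to 0.733 over 16 alternatives, with DESeq2 the only one under the threshold, and the fold change from −0.75 to −0.51. Slc7a2 has long transcripts (6612 bases on average, weighted by expression) and lay 0.37 log2 units lower in Nudt7 replicate 3 than in the other 3 Nudt7 livers. Without that liver the log2 fold change was −0.54 (edgeR adjusted p = 0.202).

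Both exon forms of Slc7a2 were present in every liver, with the 137-base form ahead. Transcripts with the 137-base exon summed to 119, 99.6, 81.9 and 128 TPM (abundance per length and library) in Nudt7 livers, against 222, 173, 155 and 149 TPM in GFP livers. Those with the 140-base exon summed to 47.7, 36.3, 7.57 and 51.1 TPM in Nudt7 livers, against 54.5, 59.6, 45.4 and 68.1 TPM in GFP livers. The groups did not overlap for the 137-base form and overlapped for the 140-base form, for which Nudt7 replicate 3 was the lowest liver. The 137-base form made up 76.9% ± 9.79 of the 2 forms in Nudt7 livers, against 75.2% ± 4.97 in GFP livers (mean ± SD, n = 4 per group), with ranges of 71.4% to 91.5% in Nudt7 livers and 68.7% to 80.3% in GFP livers. The coding sequence of Slc7a2-201 has 657 codons and that of Slc7a2-202 has 658.

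**Figure D2:**
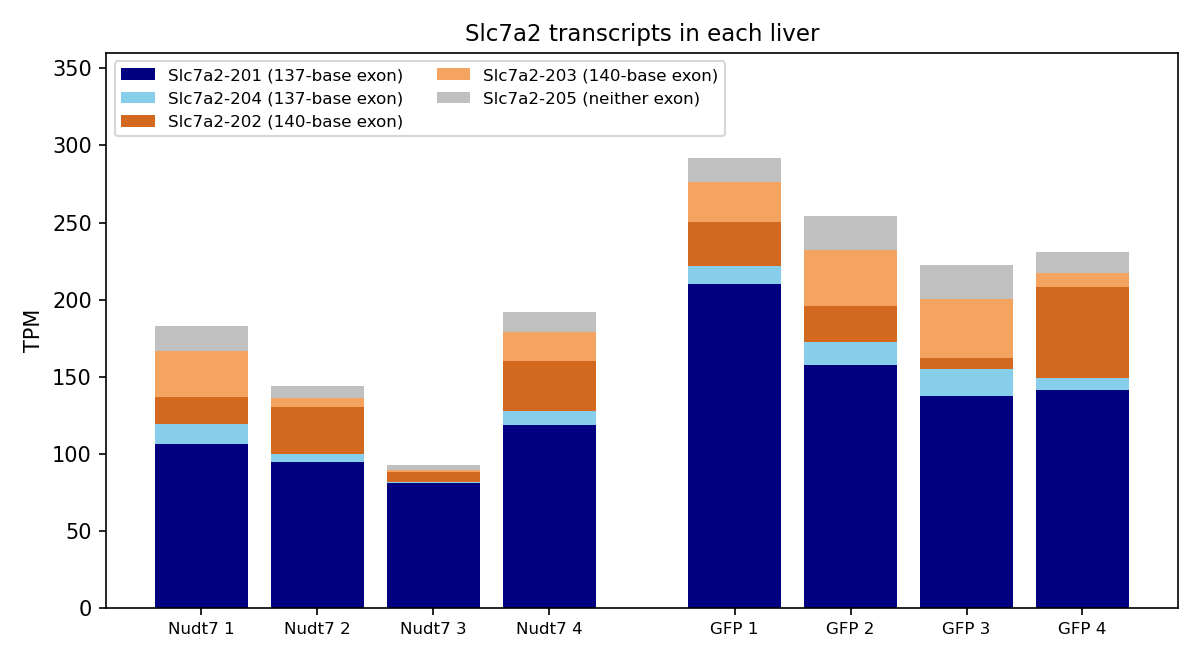
TPM of each Slc7a2 transcript (vertical axis, stacked from 0) in each Nudt7 and GFP liver, in blue for the 137-base exon, in orange for the 140-base exon and in grey for the transcript with neither. The stacks reach 92.9 to 192 TPM in Nudt7 livers, against 222 to 292 TPM in GFP livers, and Nudt7 replicate 3 has the smallest orange part.

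Slc38a2 was at 144, 92.2, 76.6 and 88.9 CPM in Nudt7 livers, against 162, 150, 145 and 156 CPM in GFP livers. Nudt7 replicate 1 lay just under the lowest GFP liver, and the other 3 Nudt7 livers lay well apart from the GFP livers. The means were 100.4 ± 29.7 CPM in Nudt7 livers, against 153 ± 7.24 CPM in GFP livers (mean ± SD, n = 4 per group), a log2 fold change of −0.61 (SE 0.18, 95% interval −1.0 to −0.22, unadjusted p = 0.0056). It did not pass over all genes (edgeR quasi-likelihood adjusted p = 0.351; 0.101 to 0.772 over 16 alternatives, DESeq2 included), and the fold change ran from −0.82 to −0.49. Slc38a2 is represented in the files by 1 transcript of 4626 bases, in the longest of the 3 length classes, and lay 0.46 log2 units lower in Nudt7 replicate 3 than in the other Nudt7 livers. Without that liver it was at −0.49 (edgeR adjusted p = 0.343).

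Slc38a4, the most abundant of the 8 genes per length, was at 868, 959, 966 and 1042 CPM in Nudt7 livers, against 1154, 1052, 1050 and 1136 CPM in GFP livers. The groups did not overlap, by a narrow margin between Nudt7 replicate 4 and GFP replicate 3. The log2 fold change was −0.20 (SE 0.12, 95% interval −0.47 to 0.08, edgeR quasi-likelihood adjusted p = 0.687), and it ran from −0.29 to −0.14 over the 16 alternatives. Reads were assigned to 2 transcripts with the same coding sequence length of 547 codons, Slc38a4-202 at 251 ± 35.8 TPM and Slc38a4-201 at 221 ± 36.8 TPM in Nudt7 livers, and at 293 ± 9.69 and 283 ± 20.8 TPM in GFP livers (mean ± SD, n = 4 per group).

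Slc38a3, the system N gene, had overlapping groups. It was at 526, 632, 649 and 643 CPM in Nudt7 livers, against 584, 558, 535 and 566 CPM in GFP livers. Nudt7 replicate 1 was the lowest of the 8 livers and the other 3 Nudt7 livers were the highest. The log2 fold change was 0.13 (SE 0.12, 95% interval −0.14 to 0.40, edgeR quasi-likelihood adjusted p = 0.782). On the TPM scale the mean was 349 ± 51.6 in Nudt7 livers, against 361 ± 29.5 in GFP livers (mean ± SD, n = 4 per group), and the difference on the log2(TPM + 1) scale was −0.057 (limma).

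Per length, the message for the heavy chain of the LAT1 heterodimer was well above that for its light chain in every liver. Slc3a2 was at 32.4, 38.6, 51.4 and 35.7 CPM in Nudt7 livers, against 36.0, 35.6, 42.5 and 49.3 CPM in GFP livers. Slc7a5 was at 2.11, 2.38, 3.46 and 1.5 CPM in Nudt7 livers, against 2.22, 2.48, 4.18 and 1.35 CPM in GFP livers, from 23 to 50 reads per liver. For both genes the groups overlapped over most of their range. The log2 fold change of Slc3a2 was −0.05 (SE 0.16, 95% interval −0.41 to 0.31) and that of Slc7a5 was −0.09 (SE 0.36, 95% interval −0.87 to 0.69), with edgeR quasi-likelihood adjusted p values of 0.947 for Slc3a2 and 0.956 for Slc7a5. The ratio of Slc3a2 to Slc7a5 TPM was 32.8, 34.4, 21.8 and 47.0 in Nudt7 livers and 24.1, 26.5, 20.8 and 75.8 in GFP livers. The heavy chain also pairs with other light chains of the Slc7 family.

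Slc43a1 was at 4.76, 5.21, 6.42 and 7.95 CPM in Nudt7 livers, against 5.47, 6.50, 6.86 and 8.69 CPM in GFP livers. Its groups overlapped, and its log2 fold change was −0.18 (SE 0.21, 95% interval −0.63 to 0.28, edgeR quasi-likelihood adjusted p = 0.816). Slc6a12 was at 52.0, 65.5, 82.9 and 78.3 CPM in Nudt7 livers, against 66.2, 65.5, 65.2 and 66.8 CPM in GFP livers. The Nudt7 livers lay on both sides of the GFP livers, whose SD was 0.706 CPM. The log2 fold change of Slc6a12 was 0.08 (SE 0.15, 95% interval −0.24 to 0.40, edgeR quasi-likelihood adjusted p = 0.885).

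**Figure D3:**
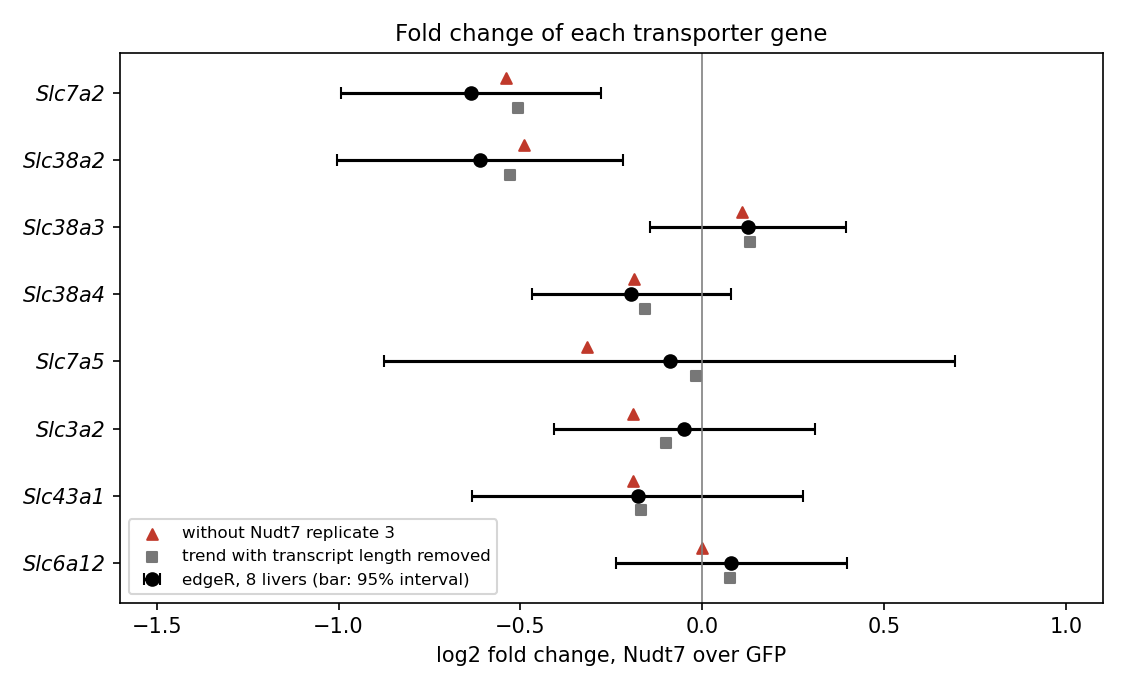
Log2 fold change of each transporter gene, Nudt7 over GFP (horizontal axis), from edgeR with its 95% interval (black), without Nudt7 replicate 3 (red triangles) and with the trend of each library with transcript length removed (grey squares). Slc7a2 (−0.64) and Slc38a2 (−0.61) are furthest from 0 and stay below 0 in both alternatives (−0.54 and −0.51 for Slc7a2, −0.49 and −0.53 for Slc38a2), and the intervals of the other 6 genes include 0.

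Compared per length, the 8 genes spanned a wide range of levels, in the same order in both groups except for Slc38a2 and Slc6a12. Slc38a4 averaged 472 ± 61.5 TPM in Nudt7 livers, against 576 ± 13.6 TPM in GFP livers, Slc38a3 came next, followed by Slc7a2 at 153 ± 45.1 TPM in Nudt7 livers, against 250 ± 31.1 TPM in GFP livers (mean ± SD, n = 4 per group). These 3 had TPM ranges that did not overlap with those of their neighbours in the order within either group. Slc38a2 averaged 34.0 ± 11.9 TPM in Nudt7 livers, against 54.6 ± 2.10 TPM in GFP livers, and Slc6a12 averaged 45.7 ± 10.8 TPM in Nudt7 livers, against 48.1 ± 4.02 TPM in GFP livers. Slc6a12 was above Slc38a2 in 3 of 4 Nudt7 livers, with overlapping ranges, and Slc38a2 was above Slc6a12 in 4 of 4 GFP livers, where no neighbouring ranges overlapped. Slc3a2 averaged 31.3 ± 2.37 TPM in Nudt7 livers, where its range overlapped with that of Slc38a2, and 36.8 ± 5.53 TPM in GFP livers. Slc43a1, at 3.60 ± 1.29 TPM in Nudt7 livers, against 4.53 ± 0.841 TPM in GFP livers, and Slc7a5, at 0.991 ± 0.315 TPM in Nudt7 livers, against 1.27 ± 0.584 TPM in GFP livers, came last.

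The 8 genes together held 1072, 1148, 882 and 1256 TPM in Nudt7 livers, against 1413, 1342, 1311 and 1261 TPM in GFP livers, with Nudt7 replicate 4 just under the lowest GFP liver. Of these sums, Slc38a4 took 41.3% to 46.0% in Nudt7 livers and 42.2% to 45.2% in GFP livers. Slc7a2 took 17.0%, 12.5%, 10.5% and 15.3% in Nudt7 livers and 20.6%, 19.0%, 16.9% and 18.3% in GFP livers. The Slc7a2 shares overlapped at a single pair, Nudt7 replicate 1 and GFP replicate 3.

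The leading transcript of a gene was compared as its share of the gene's TPM, in the 7 members with at least 2 transcripts of 5% or more. By an exact two-sided permutation test over the livers, 0 of 7 passed after Benjamini-Hochberg adjustment. With 4 against 4 livers the smallest p is 0.0286, so after adjustment over 7 members no member could pass on its own. The 0 therefore does not show that the shares were alike. Slc38a3-209, a coding transcript of 505 codons, took 66.1% ± 3.71 of Slc38a3 in Nudt7 livers, against 57.6% ± 4.71 in GFP livers (mean ± SD, n = 4 per group; exact permutation p = 0.0571, adjusted p = 0.4). Its shares were 65.0%, 62.8%, 71.4% and 65.4% in Nudt7 livers and 54.2%, 55.5%, 56.4% and 64.6% in GFP livers. The groups overlapped only through GFP replicate 4. Slc7a2-201 took 68.2% ± 13.2 of Slc7a2 in Nudt7 livers, against 64.3% ± 5.12 in GFP livers, with 87.5% in Nudt7 replicate 3. Slc43a1 had few reads (59 to 200 per liver), and Slc43a1-203 took 63.2% and 72.0% of it in Nudt7 replicates 1 and 2 and almost none in the other 6 livers.

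Of 54 other amino acid transporter genes, 29 had enough reads to be tested. Of the 29, 0 passed (edgeR quasi-likelihood), beside 0.117% of all genes. DESeq2 and limma-voom also called 0, beside 1.11% and 0.0585% of all genes they adjusted. Before adjustment 1 was higher and 1 lower at a p under 0.05, beside 4.25% and 4.03% of all genes. A negative fold change was found for 19 of 29, beside 50.2% of all genes. The median was −0.11 log2 units, and −0.04 without Nudt7 replicate 3. Slc1a4, which encodes the neutral amino acid exchanger ASCT1, was at 3.28, 3.62, 2.47 and 1.24 CPM in Nudt7 livers, against 0.623, 1.02, 1.51 and 1.52 CPM in GFP livers (log2 fold change 1.15, SE 0.37, edgeR adjusted p = 0.432). Slc7a6, a light chain that pairs with Slc3a2, was at 0.859, 0.618, 0.576 and 0.456 CPM in Nudt7 livers, against 0.623, 1.53, 0.920 and 1.91 CPM in GFP livers (−1.03, SE 0.40, edgeR adjusted p = 0.526). For both, the groups overlapped and the levels were low.

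The 4 most abundant carriers outside the 8 genes did not pass the test, nor did Slc38a10, which had one of the 4 smallest p values of that list. Slc38a6 averaged 213 ± 61.2 CPM in Nudt7 livers, against 262 ± 24.8 CPM in GFP livers (mean ± SD, n = 4 per group), with a log2 fold change of −0.30 (SE 0.21), and was lowest in Nudt7 replicate 3, at 121 CPM. Slc6a13, which encodes the GABA and taurine carrier GAT2, averaged 121 ± 8.46 CPM in Nudt7 livers, against 124 ± 16.4 CPM in GFP livers (−0.03, SE 0.13). Slc16a10, the gene of the aromatic amino acid carrier TAT1, averaged 130 ± 11.6 CPM in Nudt7 livers, against 155 ± 21.2 CPM in GFP livers (−0.26, SE 0.13). The glutamate transporter gene Slc1a2 was at −0.25 (SE 0.19) and Slc38a10 at −0.17 (SE 0.11). The edgeR adjusted p values of these 5 ran from 0.649 for Slc16a10 to 0.966 for Slc6a13.

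Genes of the GCN2 and ATF4 amino acid response, 34 in all and 32 of them tested, also gave 0 calls in edgeR, beside 0.117% of all genes. Limma-voom called 0 with sample weights (0.76% of all genes) and 0 without them (0.0585%). Of the 32, 9 had an unadjusted p under 0.05 and a lower value in Nudt7 livers and 1 had a higher value (4.03% and 4.25% of all genes). The groups did not overlap for 6, all with Nudt7 lower, beside 3% of all genes. The median log2 fold change was −0.26, and −0.29 without Nudt7 replicate 3. Atf4 itself was at 56.0, 60.9, 66.7 and 48.5 CPM in Nudt7 livers, against 67.7, 79.7, 85.9 and 82.3 CPM in GFP livers, with every Nudt7 liver below every GFP liver. Its log2 fold change was −0.44 (SE 0.13, edgeR adjusted p = 0.361).

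Cebpg, which encodes a bZIP partner of ATF4, was at 48.8, 49.4, 37.2 and 49.8 CPM in Nudt7 livers, against 81.1, 67.4, 57.2 and 65.5 CPM in GFP livers. Its groups did not overlap (−0.55, SE 0.14, edgeR adjusted p = 0.245). Cars, the cysteinyl-tRNA synthetase gene, was at 13.4, 12.5, 13.5 and 12.1 CPM in Nudt7 livers, against 16.3, 17.2, 17.0 and 16.2 CPM in GFP livers (−0.38, SE 0.11, edgeR adjusted p = 0.364), also without overlap. Ddit4, which encodes an inhibitor of mTORC1 and also responds to glucocorticoids, was at 21.9, 19.1, 30.3 and 14.1 CPM in Nudt7 livers, against 72.1, 106, 25.8 and 152 CPM in GFP livers. GFP replicate 3 lay among the Nudt7 livers, and the log2 fold change was −2.07 (SE 0.46, edgeR adjusted p = 0.179). DESeq2 called Cebpg (−0.54, adjusted p = 0.0436) and Ddit4 (−2.05, adjusted p = 0.0223), where it called 0.477% of the 13424 genes it adjusted as lower. Without GFP replicate 3, edgeR called Ddit4 (−2.36, adjusted p = 0.0160). That liver is the GFP liver that lay among the Nudt7 livers, so leaving it out widens the difference. The share of all genes called in that fit is not given here, so this call adds no separate evidence. The 1 higher gene was Gdf15, a stress hormone gene named here after its values were seen (1.05, SE 0.37, edgeR adjusted p = 0.470).

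**Figure D4:**
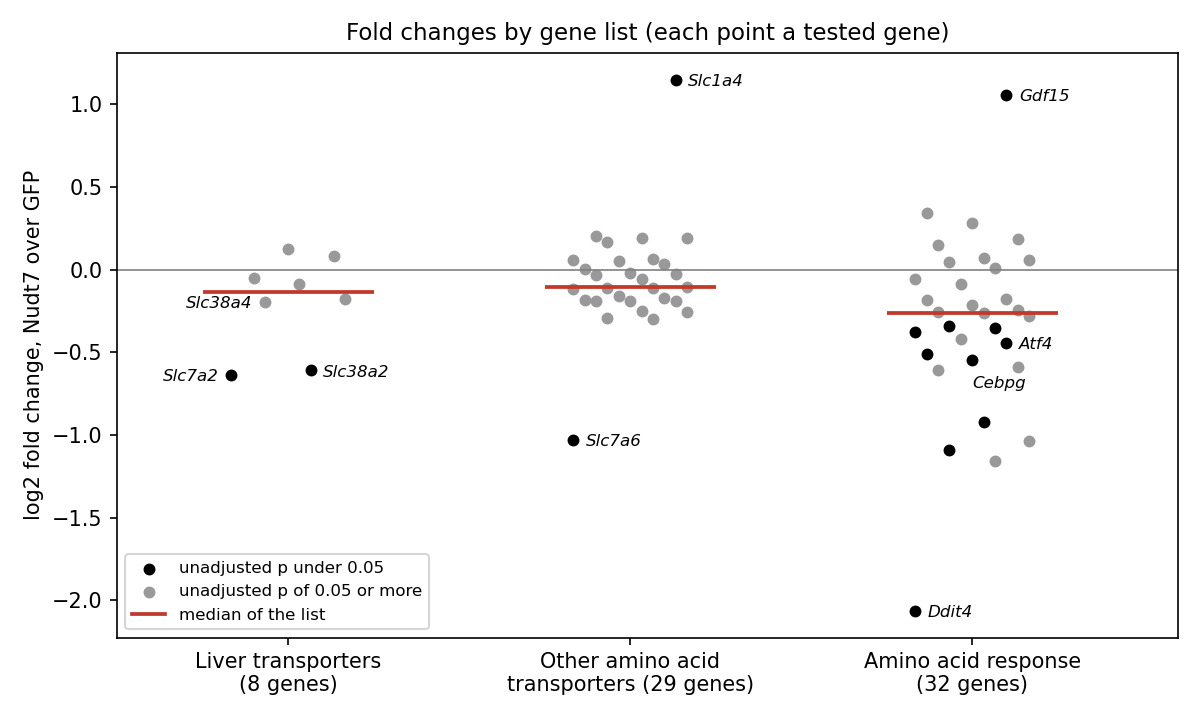
Log2 fold change of every tested gene, Nudt7 over GFP (vertical axis), in the 8 liver transporters, 29 other amino acid transporters and 32 amino acid response genes, with the list median as a red line and black points for an unadjusted p under 0.05. The medians are −0.13, −0.11 and −0.26, and the black points lie below 0 except Slc1a4 and Gdf15.

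The members that varied most over the 8 livers were Slc7a5, Slc38a2 and Slc7a2, with SDs of log2 CPM of 0.52, 0.43 and 0.40. For each, the genes with the most similar profile were taken by the root mean square difference of log2 CPM over the 8 livers, each gene centred on its mean, among 12171 genes. For Slc7a2 they were Cep97 (0.0882 log2 units), Cebpg (0.116) and Smim13 (0.129), beside a median of 0.442 over all genes. For Slc38a2 they were Clec9a (0.142), Hecw2 (0.144) and Atad2 (0.157), beside a median of 0.467. For Slc7a5 they were Spag4 (0.200), Enpp6 (0.224) and Trem2 (0.231), beside a median of 0.536. All points of these profiles come from the same 8 libraries, so they share depth, composition and the divergent Nudt7 replicate 3. Of these 9 genes, 0 passed the edgeR test between groups, beside 0.117% of all genes. They were chosen for profiles like those of members that did not pass, so this 0 is not a separate result. The 3 genes most similar to Slc7a5 had group means of 1.40 to 3.75 CPM, so their profiles rest on few reads.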

How the data were processed

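Each of the 8 livers, 4 per group, had 1 file. The submitters' processing notes list FastQC, Salmon and DESeq2 as the authors' tools and GRCm38 as the build; they name no Salmon version, index or options. Per the file headers, the deposited values are estimated counts per transcript (Salmon's expected reads, raw), TPM per transcript and its EffectiveLength in bases.

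Gene names were assigned through transcript identifiers from GENCODE M21. Of 109282 transcripts, 107987 (98.8%) were named; reads of the others (0.552% to 1.06% per library) were not used. Estimated counts and TPM were added up over the transcripts of each of 34547 genes, and the count sums were rounded. The main test was edgeR 4.0.16 in R 4.3.3 (quasi-likelihood, robust, TMM, filterByExpr by group), two-sided and without covariates, with Benjamini-Hochberg adjustment over 13678 genes and a threshold of 0.05. The common biological coefficient of variation was 0.196. The procedure was also run on simulated counts, which did not include the length trend of Nudt7 replicate 3. Alternatives used DESeq2 1.42.0, limma 3.58.1 (voom, voom with sample weights, and log2(TPM + 1) with a trend), DESeq2 size factors, no filter, an effective length offset, removal of each library's loess trend with gene length (span 0.5), and each liver left out in turn. For transcript shares the alternatives were shares of estimated counts, the second transcript in place of the first, and each liver left out.

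The libraries held 11187806 to 23640734 estimated reads, so depth limits mainly the rare genes. PCR copies were not marked by molecular identifiers, so reads are not separate molecules. The labels call the livers separate samples and say no more, so p-values measure the spread between these samples. Replicate numbers follow accession order and pair nothing.

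The members and lists were chosen with earlier results of these data known. Genes named beside the 8 members follow a rule: from each list those that passed and the 4 with the smallest unadjusted p, of the other transporters also the 4 with the highest mean TPM, and for the 3 members with the largest SD the 3 most similar genes with a mean of at least 1 CPM. The list of 54 other transporters also held Slc66a1 and Tmem27, which are other names of Pqlc2 and Cltrn and were counted once. Tf was not matched under this name. Promoter sequences come from RefSeq. Exon sequences were cut from the GENCODE M21 transcript sequences, with positions on GRCm38.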

Additional observations from a re-analysis of the deposited data

Results flagged for a closer look

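Of 50 groups of 4 livers checked for 1 liver far from the other 3, 6 had one, and chance gives about 1 in 20. Slc38a3 stood at 525.5 CPM in Nudt7 replicate 1, and the other Nudt7 livers reached up to 649 CPM. Slc38a4 stood at 596 TPM in GFP replicate 1, the highest of GFP livers that began at 567 TPM. Slc6a12 stood at 42.1 TPM in GFP replicate 4, and the other GFP livers reached up to 50.8 TPM. Nudt7 stood at 3569 CPM in Nudt7 replicate 3, the library that also stood apart on the first principal component. Slc7a2-201 took 71.9% of Slc7a2 TPM in GFP replicate 1, and the other GFP livers began at 61.2%. Slc7a5-201 took 73.0% of Slc7a5 TPM in Nudt7 replicate 3 and 100% in the other 3 Nudt7 livers, from 23 to 42 reads per liver.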

How the results depend on the processing

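The log2 fold changes of Slc7a2, Slc38a2, Slc38a4 and Slc43a1 were negative under all 16 alternatives, and those of the other 4 members changed sign under at least 1. Slc38a3 was at −0.057 on log2(TPM + 1). Slc7a5 was at 0.011 in limma-voom, and leaving out 1 liver moved it between −0.32 and 0.26, with 0.086 without Nudt7 replicate 4 and 0.26 without GFP replicate 3. Slc3a2 moved between −0.19 and 0.073, with 0.049 without Nudt7 replicate 1 and 0.073 without GFP replicate 4. Slc6a12 was at −0.051 with sample weights and −0.096 on log2(TPM + 1), and leaving out 1 liver moved it between −0.0023 (without Nudt7 replicate 3) and 0.21. The cause of these changes was not tested. The number of negative members ran from 5 to 8 over all alternatives and from 5 to 7 with 1 liver left out.

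Members called lower numbered 1 in DESeq2 and 0 under the other alternatives, with 0 called higher under each. Amino acid response genes called lower numbered 2 in DESeq2 and 1 without GFP replicate 3, a range of 0 to 1 over the fits that left out a liver. With 1 liver left out, the leading transcript share difference moved between −2.51 and 7.31 percentage points for Slc7a2, between −1.32 and 4.30 for Slc3a2, and between −3.82 and 3.53 for Slc6a12. It changed direction for Slc7a2 (−2.51) and Slc3a2 (−0.826) without Nudt7 replicate 3, for Slc3a2 without GFP replicate 2 (−1.32), and for Slc6a12 without Nudt7 replicate 4 (3.53) or GFP replicate 4 (1.76).

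No paired analysis was possible because the labels number no replicates; the numbers 1 to 4 in both groups follow accession order and pair no livers. Depth limits Slc7a5 (23 to 50 reads) and Slc43a1 most, and the 95% interval of Slc7a5 (−0.87 to 0.69) spans changes in both directions.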
